A study of Homo sapiens with 6 samples.

Results

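The EPH receptors form the largest family of receptor tyrosine kinases, and 10 of their genes were followed here in undifferentiated human embryonic stem cells (hESCs) with and without S6K1. They were the 10 listed symbols EPHA1, EPHA2, EPHA3, EPHA4, EPHA5, EPHA7, EPHB1, EPHB2, EPHB3 and EPHB4, out of 61155 gene symbols in the count table, and all 10 were found. 6 of them belong to the EPHA class and 4 to the EPHB class. The data were bulk RNA sequencing of 3 WT libraries and 3 S6K1-/- libraries of H7, an established hESC line that was kept without feeder cells on Matrigel in TeSR-E8 medium. S6K1-/- cells were obtained with CRISPR/Cas9 aimed at exons 9 and 11 of RPS6KB1, the gene of p70 S6 kinase 1, and the study names clone #1 as the source of the S6K1-/- hESCs sequenced. A difference of genotype and a difference of clone therefore cannot be told apart.

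The labels call the S6K1-/- samples a knockdown and give every sample a time of week 5, whereas the extraction notes and the methods describe knockout cells before differentiation. The treatment field of every sample, WT included, further carries a stray sentence on dexamethasone, isobutylmethylxanthine and insulin, which has no counterpart in the methods for hESCs. No label says whether the libraries of a group came from separate cultures, so p-values measure the spread between these libraries only, which may be technical.

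EPH receptors bind ephrins, ligands that are themselves anchored in the membrane of a neighbouring cell, so that signalling needs cell contact. Ephrin-A ligands are held by a lipid anchor and mostly bind EPHA receptors, while ephrin-B ligands span the membrane and mostly bind EPHB receptors. Binding sets off phosphorylation in the receptor and often in the ephrin-bearing cell as well, which commonly ends in repulsion and keeps cell populations apart. The family is also known for guiding axons and for shaping blood vessels. The study took up EPH and ephrin genes after an analysis of these same libraries, so their choice is not independent evidence of a direction.

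Library totals ran from 21896698 to 24473013 counts, and TMM scaling factors from 0.989 to 1.01. RPS6KB1 had 831, 791 and 777 counts in WT and 464, 464 and 438 in S6K1-/- libraries, and fell by 0.75 on the log2 scale (edgeR adjusted p = 2.52e-07). All 10 markers of pluripotent stem cells passed the filter on low counts, with a summed level of 6082 to 6214 CPM in WT and 5759 to 5779 CPM in S6K1-/- hESCs, where CPM is the count of a gene relative to the TMM-scaled library size as edgeR computes it. PRDM14 was higher and DNMT3B lower at an adjusted p under 0.001, and the other 8 were not past it. DNMT3B alone went from between 1400 and 1431 CPM to between 1069 and 1161 CPM, and the sums of the other 9 genes overlapped, at 4651 to 4814 CPM in WT and 4618 to 4694 CPM in S6K1-/- hESCs. Genes listed for other lineages had counts in part, which alone does not show that cells of these lineages were there. KDR of the mesoderm list had 2319 to 2642 counts and FOXD3 of the neural crest list 497 to 596 counts per library, whereas HAND1 and TFAP2B of these lists had 0 counts throughout.

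The receptors have related kinase domains, and 2 stretches of coding sequence show how far short reads can tell the genes apart there. The longest run of bases that any pair of the 10 reference transcripts had in common was 59 bases, shared by EPHA2 and EPHB2, although these genes belong to different classes. It lies in the catalytic loop of the kinase, at chr1:16132122-16132180 on the minus strand in exon 13 of EPHA2, and at chr1:22908046-22908104 on the plus strand in exon 12 of EPHB2. The same stretch is given below, 5′ to 3′ on the strand of each gene, for this pair and for the 4 receptors that differed most between the genotypes, from the GENCODE 44 transcripts on GRCh38. Capitals mark the bases that differ from EPHA2.
EPHA2: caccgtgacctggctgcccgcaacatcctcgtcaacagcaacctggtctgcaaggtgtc
EPHB2: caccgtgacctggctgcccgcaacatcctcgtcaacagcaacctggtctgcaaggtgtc
EPHA4: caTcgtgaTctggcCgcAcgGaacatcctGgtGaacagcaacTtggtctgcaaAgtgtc
EPHA3: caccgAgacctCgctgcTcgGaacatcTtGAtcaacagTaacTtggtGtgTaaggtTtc
EPHB1: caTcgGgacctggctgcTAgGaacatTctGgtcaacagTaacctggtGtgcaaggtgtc
EPHB3: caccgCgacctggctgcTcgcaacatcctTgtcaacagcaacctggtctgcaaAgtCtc

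In this window EPHB3 and EPHB4 each differed from EPHA2 at 5 bases, EPHA4 and EPHB1 at 9, EPHA1 and EPHA3 at 12, EPHA7 at 13 and EPHA5 at 14. The EPHA4 window lies at chr2:221436457-221436515 on the minus strand in exon 13, and that of EPHA3 at chr3:89431243-89431301 on the plus strand, also in exon 13. The EPHB1 window lies at chr3:135201567-135201625 and the EPHB3 window at chr3:184580495-184580553, both on the plus strand in exon 12. The next longest shared run, between EPHB3 and EPHB4, had 36 bases. EPHA4 shared at most 23 bases with any other member, which were the bases agtgatgtatggagctatggaat of EPHA4 (chr2:221434203-221434225) and EPHA7 (chr6:93254708-93254730), both in exon 14. Every shared run was shorter than an untrimmed read, and how the authors treated reads with more than 1 alignment is not given in the sources used here.

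EPHA4 was the receptor that changed most clearly: it rose by 46.4% in S6K1-/- hESCs and was the only 1 of the 10 past an adjusted p of 0.001. EPHA3 and EPHB1 were lower and EPHB3 was higher at an adjusted p under 0.05 but not under 0.001. EPHA1, EPHB4, EPHA2, EPHB2 and EPHA7, which together supplied most receptor counts, did not pass either threshold. EPHA5 was at or near 0 in every library.

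Of the 10 receptors, 9 passed the filter on low counts and were tested. At an adjusted p under 0.001, 1 was higher, where 1.42% of all 19521 genes tested were higher, and none was lower, where 2.54% were lower (quasi-likelihood test of edgeR, Benjamini-Hochberg adjustment over all genes). At an adjusted p under 0.05, 2 were higher against 5.47% of all genes, and 2 were lower against 8.31%. The unadjusted p was under 0.05 for the same numbers, 2 higher (11.8% of all genes) and 2 lower (14.5%). DESeq2's Wald test likewise called 1 higher and 0 lower receptors at 0.001, against 339 and 505 of all 19521 genes tested. The libraries of the genotypes did not overlap for 2 receptors that were higher (14.0% of all genes) and 2 that were lower (16.7%). EPHA3 passed the filter only through the WT libraries, so it could enter the test only as a lower gene, and the counts of lower receptors include it. The median log2 fold change of the 9 was 0.00, as over all genes tested, and the values ran from -1.46 to 0.55.

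**Figure D1:**
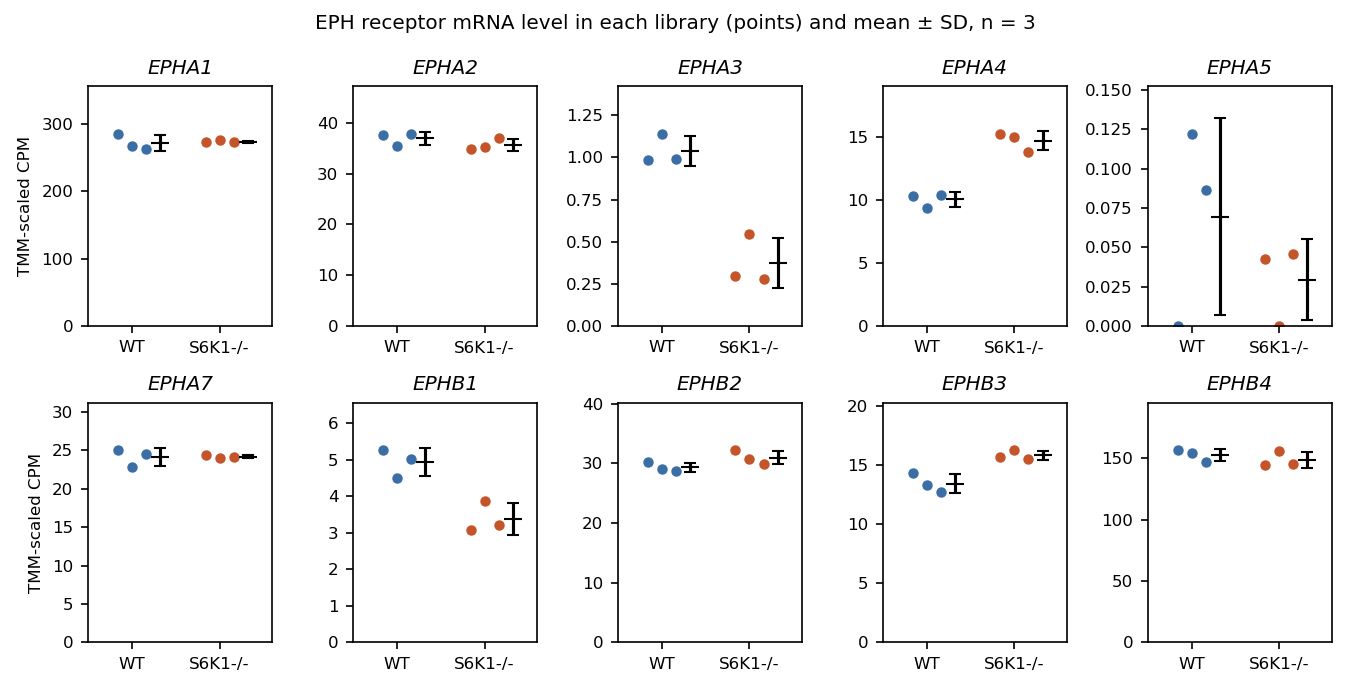
Level of each EPH receptor mRNA in TMM-scaled CPM on the vertical axis, 1 panel per gene with its own scale from 0. Points are the 3 WT (blue) and 3 S6K1-/- (orange) libraries and bars the mean ± SD. EPHA4 and EPHB3 are higher and EPHA3 and EPHB1 lower in every S6K1-/- library than in any WT library, while the points of the other genes overlap.

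EPHA4 is the most promiscuous receptor of the family, binding ephrins of both classes, and is known for guiding axons of the spinal cord and forebrain. Its gene covers chr2:221418027-221574202 on the minus strand and has 18 exons in the reference transcript. The WT libraries held 252, 231 and 242 counts of EPHA4 and the S6K1-/- libraries 358, 360 and 301. In CPM these were 10.4, 9.40 and 10.4 in WT and 15.2, 15.0 and 13.8 in S6K1-/- hESCs. The lowest S6K1-/- library thus lay above the highest WT library. The means were 10.1 ± 0.572 and 14.7 ± 0.766 CPM (SD, n = 3 each), and the log2 fold change was 0.55 with a standard error of 0.077 and a 95% interval from 0.38 to 0.71. The edgeR adjusted p of EPHA4 was 1.58e-04, and by p-value it stood at place 494 among the genes tested. Without S6K1-/- replicate 1 it was 0.00129 and without S6K1-/- replicate 2 it was 0.00121, both above 0.001, so the call was lost in these 2 fits.

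The level of EPHA4 can also be given within each library, relative to other receptors, where no scaling between libraries enters. These ratios restate the counts above and are no further support. The counts of EPHA4 per count of EPHA7 were 0.411 to 0.424 in WT and 0.574 to 0.626 in S6K1-/- libraries. Against EPHA2 they were 0.265 to 0.275 and 0.373 to 0.438, and against EPHB3, which was itself higher, 0.706 to 0.820 and 0.891 to 0.970. As a share of all counts over the 10 receptors, EPHA4 went from 1.85% ± 0.107 to 2.69% ± 0.129 (SD, n = 3 each). An antisense long noncoding RNA, ENSG00000272944, shares 353 exonic bases with EPHA4 in GENCODE and could not be matched to a symbol of the table. TMEM256P2, a pseudogene inside EPHA4, had 0 counts in every library.

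EPHB3 acts with EPHB2 in the sorting of cells along the intestinal crypt and in the guidance of commissural axons. It lies at chr3:184561785-184582408 on the plus strand, with no other annotated gene overlapping it. Its WT libraries had 349, 327 and 295 counts and its S6K1-/- libraries 369, 389 and 338. In CPM the WT values were 14.3, 13.3 and 12.7 and the S6K1-/- values 15.7, 16.2 and 15.5. The groups did not overlap, but the gap between the highest WT and the lowest S6K1-/- library was small. EPHB3 had a log2 fold change of 0.24 with a standard error of 0.070 (95% interval 0.08 to 0.39, edgeR adjusted p = 0.0376). With 1 library left out it was under 0.05 in only 1 of 6 fits, that without WT replicate 1 (0.0262), and it was 0.0793 and 0.133 without WT replicates 2 and 3. Without S6K1-/- replicates 1, 2 and 3 the adjusted p of EPHB3 was 0.0870, 0.112 and 0.0679, and with DESeq2's Wald test 0.127.

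EPHB2, the partner of EPHB3, gave 735, 714 and 668 counts in WT and 755, 737 and 652 in S6K1-/- libraries. The WT range of 28.8 to 30.2 CPM and the S6K1-/- range of 30.0 to 32.2 CPM overlapped. For EPHB2 the log2 fold change was 0.08 with a 95% interval from -0.04 to 0.20 (edgeR adjusted p = 0.410), so a rise of up to 14.6% lay within the interval. The microRNA gene MIR4253, on the opposite strand, shares 34 exonic bases with EPHB2 and had 27 to 29 counts in WT and 32 to 38 in S6K1-/- libraries (edgeR adjusted p = 0.211). The strand setting is not given, so whether these counts include reads of EPHB2 could not be told.

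EPHA3, a receptor with high affinity for ephrin-A5, was scarce in both genotypes. It lies at chr3:89107621-89482134 on the plus strand and has 17 exons. The counts were 24, 28 and 23 in WT and 7, 13 and 6 in S6K1-/- libraries. In CPM they were 0.986, 1.14 and 0.990 in WT and 0.298, 0.543 and 0.276 in S6K1-/- hESCs. Every S6K1-/- library was below every WT library, with a mean of 0.372 ± 0.148 against 1.04 ± 0.0872 CPM (SD, n = 3 each). The log2 fold change was -1.46 with a standard error of 0.300 and a 95% interval from -2.10 to -0.82 (edgeR adjusted p = 0.00391). It was the largest fold difference among the 9 receptors tested and rests on the smallest counts. Without the filter on low counts the adjusted p of EPHA3 was 1.18e-04, and this was the only setting that brought it under 0.001. DESeq2's Wald test gave EPHA3 an adjusted p of 0.0216. With 1 library left out, its edgeR adjusted p ran from 0.00292 to 0.0250.

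EPHB1, a receptor of ephrin-B ligands that turns retinal axons at the optic chiasm, was lower as well. It lies at chr3:134795260-135260467 on the plus strand with 16 exons. WT libraries had 128, 111 and 117 counts and S6K1-/- libraries 72, 93 and 70. This gave 5.26, 4.52 and 5.04 CPM in WT and 3.07, 3.88 and 3.22 CPM in S6K1-/- hESCs. S6K1-/- replicate 2 was the highest of its group for EPHB1 and for EPHA3, and still below the WT range. For EPHB1 the log2 fold change was -0.54 with a standard error of 0.129 (95% interval -0.82 to -0.26, edgeR adjusted p = 0.0110), a 1.45-fold higher level in WT. Without WT replicate 1 the adjusted p of EPHB1 was 0.0533 and without S6K1-/- replicate 1 it was 0.0590, with a log2 fold change of -0.48 and -0.47. The noncoding gene ENSG00000288700 lies on the same strand and shares 346 exonic bases with EPHB1, and it could not be matched to a symbol of the table either.

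Markers of some other cell types were lower in the same libraries as EPHA3 and EPHB1. The 5 neuronal markers summed to 63.5 to 67.8 CPM in WT and 25.6 to 26.1 CPM in S6K1-/- hESCs, with STMN2 and DCX lower at an adjusted p under 0.001 and NEUROD1 at or under 3 counts throughout. STMN2 alone went from between 48.6 and 51.8 CPM to between 15.2 and 15.6 CPM, and the other 4 genes summed to 14.4 to 16.0 CPM in WT and 10.4 to 10.6 CPM in S6K1-/- hESCs. TUBB3 of this list had a log2 fold change of 0.26 (edgeR adjusted p = 0.605). The 8 markers of mesenchyme and neural crest summed to 111 to 115 CPM and 48.4 to 55.2 CPM, with COL1A1 and PDGFRB lower at 0.001 and TWIST1, PRRX1 and TFAP2B at or under 3 counts throughout. COL1A1 made up most of this difference, at 79.1 to 82.2 CPM in WT and 21.7 to 25.1 CPM in S6K1-/- hESCs, and the other 7 genes summed to 31.8 to 36.2 and 25.6 to 30.1 CPM. FOXD3 of this list had a log2 fold change of 0.02 (edgeR adjusted p = 0.883). The 6 endoderm markers summed to 8.27 to 10.8 CPM and 4.36 to 5.45 CPM, the smallest adjusted p being that of FOXA2 (0.00108) and SOX17 and GATA6 lying at or under 3 counts. The part of these genes in the lower EPHA3 and EPHB1 was not tested. In bulk RNA, fewer cells that express a gene and less of its RNA per cell cannot be told apart.
The remaining lists are given by their sums as well, some of which rest mainly on 1 gene. The 8 neuroectoderm markers summed to 478 to 501 CPM in WT and 470 to 489 CPM in S6K1-/- hESCs, with PAX6 higher at 0.001. NES made up most of this sum, and the other 7 genes summed to 48.9 to 53.4 and 51.5 to 58.4 CPM. The 7 mesoderm markers summed to 112 to 124 and 123 to 125 CPM, and the 7 amnion and trophoblast markers to 20.7 to 22.5 and 17.8 to 19.8 CPM, where the smallest adjusted p-values were those of MIXL1 (0.0449) and KRT7 (0.00103). Without KDR, its most abundant gene, the mesoderm list summed to 15.4 to 16.1 and 16.7 to 18.0 CPM. Without KRT7, the amnion and trophoblast list summed to 15.7 to 18.2 and 14.7 to 17.0 CPM, which overlapped. Of the 5 fibroblast markers, which summed to 539 to 567 and 515 to 539 CPM, VIM and S100A4 were lower at 0.001 and DCN had 0 counts in every library. Most of this sum was THY1, with 11559, 12037 and 11576 counts in WT and 11049, 11746 and 10420 in S6K1-/- libraries, while VIM stood at 60.2 to 68.8 CPM in WT and 41.7 to 46.1 CPM in S6K1-/- hESCs.

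**Figure D2:**
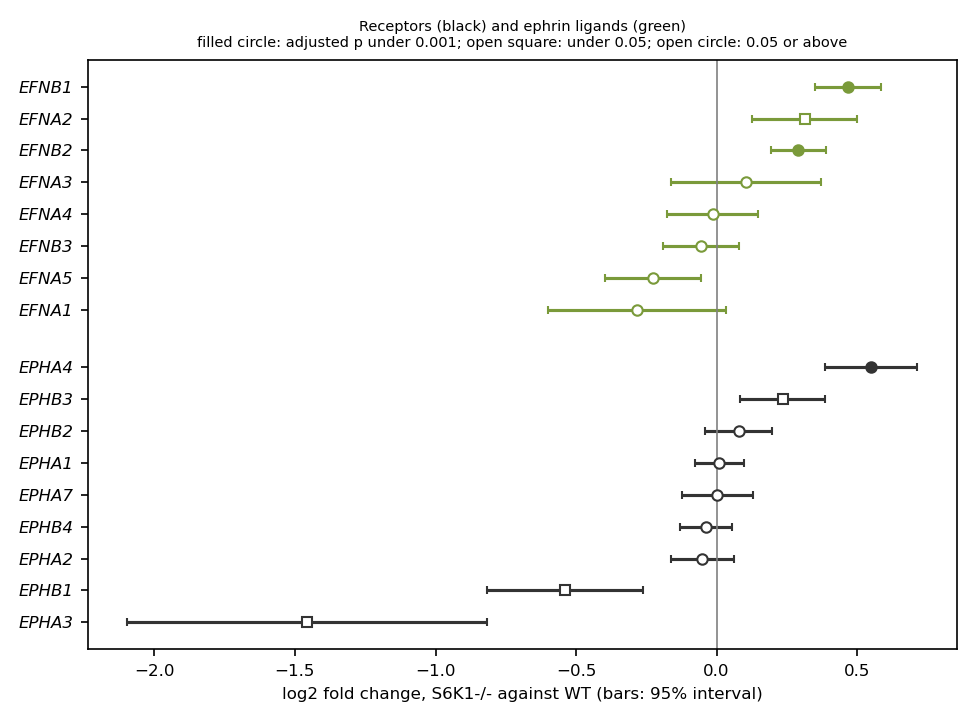
Log2 fold change of S6K1-/- against WT hESCs on the horizontal axis, with 95% intervals, for the 9 receptors tested (black) and the 8 ephrin ligands (green). EPHA4, EFNB1 and EFNB2 are the filled circles past an adjusted p of 0.001, and the intervals of EPHA1, EPHA2, EPHA7, EPHB2 and EPHB4 include 0.

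EPHA1, the first member of the family to be described and a receptor for ephrin-A1, had the most counts, and also led per kilobase of exon. It lies at chr7:143390289-143408856 on the minus strand. WT libraries held 6932, 6563 and 6111 counts and S6K1-/- libraries 6395, 6592 and 5932. The WT range of 263 to 285 CPM enclosed the S6K1-/- range of 272 to 275 CPM. The log2 fold change was 0.01 with a 95% interval from -0.08 to 0.10 (edgeR adjusted p = 0.917), so that a rise above 6.94% lay outside the interval. Its sign turned without WT replicate 2 or 3. The antisense gene EPHA1-AS1, which shares no exonic base with EPHA1, had 88 to 123 counts per library (adjusted p = 0.553), and ZYX, on the opposite strand, shares 82 exonic bases with it and had 3087 to 4172 counts.

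EPHB4, which pairs with ephrin-B2 in the separation of veins from arteries, came second by both measures. It lies at chr7:100802565-100827523 on the minus strand. The counts were 3804, 3782 and 3415 in WT and 3392, 3725 and 3164 in S6K1-/- libraries, or 147 to 156 CPM and 144 to 156 CPM. The groups overlapped, and the log2 fold change was -0.04 with a 95% interval from -0.13 to 0.05 (edgeR adjusted p = 0.635). SLC12A9, which overlaps 69 exonic bases of EPHB4 on the other strand, had 648 to 790 counts.

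EPHA2, a receptor for ephrin-A1 and ephrin-A5 that is needed to order the fibre cells of the lens, was the receptor whose level the study also followed by RT-qPCR and immunoblot. The study reported higher EPHA2 in S6K1-/- organoids, as protein and as RNA, which these libraries of undifferentiated hESCs do not measure. It lies at chr1:16124337-16156069 on the minus strand. The forward primer caagattgacaccattgcgc matched chr1:16148762-16148781 and the reverse primer tcgaagtcgctgctgacg matched chr1:16148731-16148748, both in the coding part of exon 3 and 51 bases from end to end. The run that EPHA2 shares with EPHB2 is in another exon and is not part of this amplicon. WT libraries held 917, 872 and 879 counts of EPHA2 and S6K1-/- libraries 818, 844 and 806. In CPM the WT values were 37.7, 35.5 and 37.8 and the S6K1-/- values 34.8, 35.3 and 37.0, which overlapped. The log2 fold change was -0.05 with a 95% interval from -0.16 to 0.06 (edgeR adjusted p = 0.593). A rise of EPHA2 above 4.32% in the undifferentiated S6K1-/- hESCs was outside the interval.

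EPHA7, a receptor of ephrin-A5 that takes part in closure of the neural tube, stood at 608, 562 and 571 counts in WT and 574, 575 and 524 in S6K1-/- libraries. It lies at chr6:93240020-93419687 on the minus strand. In CPM these were 25.0, 22.9 and 24.6 in WT and 24.4, 24.0 and 24.1 in S6K1-/- hESCs. The log2 fold change was 0.00 (95% interval -0.12 to 0.13, edgeR adjusted p = 0.984). EPHA5, a receptor mainly of neurons at chr4:65319563-65670495, had 0, 3 and 2 counts in WT and 1, 0 and 1 in S6K1-/- libraries. It did not pass the filter, no fold is given, and a difference was not detectable at this depth. Its antisense gene EPHA5-AS1 had 1 count in each WT library and 0 in each S6K1-/- library.

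Summed over the 10 genes, receptor mRNA was 565, 537 and 531 CPM in WT libraries 1 to 3 and 543, 557 and 542 CPM in S6K1-/- libraries 1 to 3. The means were 544 ± 18.3 and 547 ± 8.36 CPM (SD, n = 3 each), a difference smaller than the spread of the WT libraries. EPHA1 alone gave 49.9% ± 0.440 of the receptor counts in WT and 50.0% ± 0.456 in S6K1-/- libraries, and EPHB4 gave 28.0% ± 0.564 and 27.1% ± 0.714 (SD, n = 3 each). The EPHA class took 63.2% in WT and 63.7% in S6K1-/- hESCs. The 8 receptors other than EPHA1 and EPHB4 summed to 116 to 124 CPM in WT and 124 to 126 CPM in S6K1-/- libraries, so that the highest WT and the lowest S6K1-/- library were nearly level. EPHA4, EPHA3, EPHB1 and EPHB3 thus gave only a small part of the receptor counts, which also depend on the length of each mRNA.

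To set the levels of different receptors side by side, CPM was divided by the length of annotated exon. The authors' aligner, Bowtie2, does not align across splice junctions. What this took from each gene was not tested, so the values describe counts per length rather than amounts of mRNA. By CPM per kilobase of the union of exons, EPHA1 stood first in WT at 57.8 ± 2.46, EPHB4 second at 23.7 ± 0.744 and EPHA2 next at 8.93 ± 0.319 (SD, n = 3 each). EPHB3 at 2.97 ± 0.183, EPHB2 at 2.34 ± 0.0606, EPHA7 at 1.47 ± 0.0683 and EPHA4 at 1.33 ± 0.0757 CPM per kilobase made up the middle of the order. EPHB1 at 0.845 ± 0.0653 and EPHA3 at 0.158 ± 0.0133 came below them, and EPHA5 was last at 0.00706 ± 0.00638. Neighbours in this order did not overlap in any pair, although EPHA7 was only 1.10 times EPHA4 and its lowest library lay just above the highest library of EPHA4. In S6K1-/- hESCs the order was the same but for EPHA4, at 1.95 ± 0.101, which stood above EPHA7, at 1.47 ± 0.0142 CPM per kilobase (SD, n = 3 each). This change of place depends on the length used. The exons of the 20 annotated EPHA7 transcripts add up to 16460 bases, against 8016 for its longest transcript. Per kilobase of the longest transcript EPHA7 stood at 3.01 ± 0.140 in WT and 3.02 ± 0.0291 in S6K1-/- hESCs, above EPHB2 and above EPHA4 in both, and its WT libraries overlapped those of EPHB3.

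The other EPH receptor symbols in the table are not among the 10 and were looked at after their values were seen. EPHA8 had 73, 96 and 75 counts in WT and 55, 71 and 45 in S6K1-/- libraries (log2 fold change -0.45, edgeR adjusted p = 0.0885). EPHA6 had 8 to 16 counts, EPHA10 had 12 to 31 and EPHB6 had 51 to 96 counts in a library, with adjusted p-values from 0.286 to 0.992.

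The partners of the receptors gave a background for these values. All 8 ephrin genes were tested, and 2 were higher and none lower at an adjusted p under 0.001, or 3 and none at 0.05. Over all genes the shares were 1.42% and 2.54% at 0.001 and 5.47% and 8.31% at 0.05. The unadjusted p was under 0.05 for 3 higher and 1 lower ephrin, against 11.8% and 14.5% of all genes. DESeq2's Wald test also called 2 and 0 ephrins at 0.001, against 339 and 505 of all 19521 genes tested. EFNB1 rose from 24.3 ± 0.649 to 33.7 ± 0.631 CPM and EFNB2, the ligand of EPHB4, from 44.4 ± 0.960 to 54.3 ± 1.40 CPM (SD, n = 3 each). Both encode ephrin-B ligands, which EPHA4 can bind besides the EPHB receptors. With 1 library left out EFNB2 was not past 0.001 in any of 6 fits. The libraries of the genotypes did not overlap for 3 ephrins that were higher (14.0% of all genes) and 2 that were lower (16.7%), which were EFNA5 and EFNA1. EFNA5, whose level the study also followed, had 279, 266 and 283 counts in WT and 238, 231 and 210 in S6K1-/- libraries, with a log2 fold change of -0.23 (edgeR adjusted p = 0.0756), and EFNA1 had a log2 fold change of -0.28. The study reported higher EFNA5 RNA in S6K1-/- organoids, which these libraries do not measure.

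Of 60 genes listed as effectors that act with EPH receptors, among them adaptors, kinases, phosphatases and proteases, 59 were tested. At 0.001, 1 was higher and none was lower, and at 0.05 the numbers were 2 and 6, while the unadjusted p was under 0.05 for 8 and 8. These counts were near the shares over all genes of 1.42% higher and 2.54% lower at 0.001, 5.47% and 8.31% at 0.05 and 11.8% and 14.5% at an unadjusted p under 0.05. DESeq2's Wald test called 1 and 0 effectors at 0.001, against 339 and 505 of all 19521 genes tested. The higher gene was INPPL1, which encodes the lipid phosphatase SHIP2, a binding partner of EPHA2 through their SAM domains. It rose from 83.5 ± 2.13 to 102 ± 3.80 CPM (SD, n = 3 each), or 0.29 ± 0.042 (SE) on the log2 scale (edgeR adjusted p = 2.03e-04). Leaving out a library put its adjusted p above 0.001 for WT replicate 3 (0.00206) and for S6K1-/- replicates 1 (0.00196) and 2 (0.00165). The median log2 fold change of the 59 was 0.01.

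Among the other receptor tyrosine kinases, the genes most like the EPH receptors, 34 of 44 were tested. At 0.001, 1 was higher and 3 were lower, and at 0.05 the numbers were 4 and 5. DESeq2's Wald test called 1 and 4 of them at 0.001, against 339 and 505 of all 19521 genes tested. The unadjusted p was under 0.05 for 7 higher and 7 lower. The shares over all genes were 1.42% higher and 2.54% lower at 0.001, 5.47% and 8.31% at 0.05 and 11.8% and 14.5% at an unadjusted p under 0.05. FGFR3, a receptor of fibroblast growth factors, rose from 19.0 ± 0.577 to 26.6 ± 0.866 CPM (SD, n = 3 each), which is 0.49 on the log2 scale and near the value of EPHA4. TEK, the angiopoietin receptor, fell by 3.17 on the log2 scale. DDR2, a collagen receptor, fell by 1.59, and PDGFRB, a receptor of platelet-derived growth factor in mesenchymal cells, fell by 1.34. Their median log2 fold change was 0.01, against 0.00 for the EPH receptors. Whether the lists differ was not tested.

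**Figure D3:**
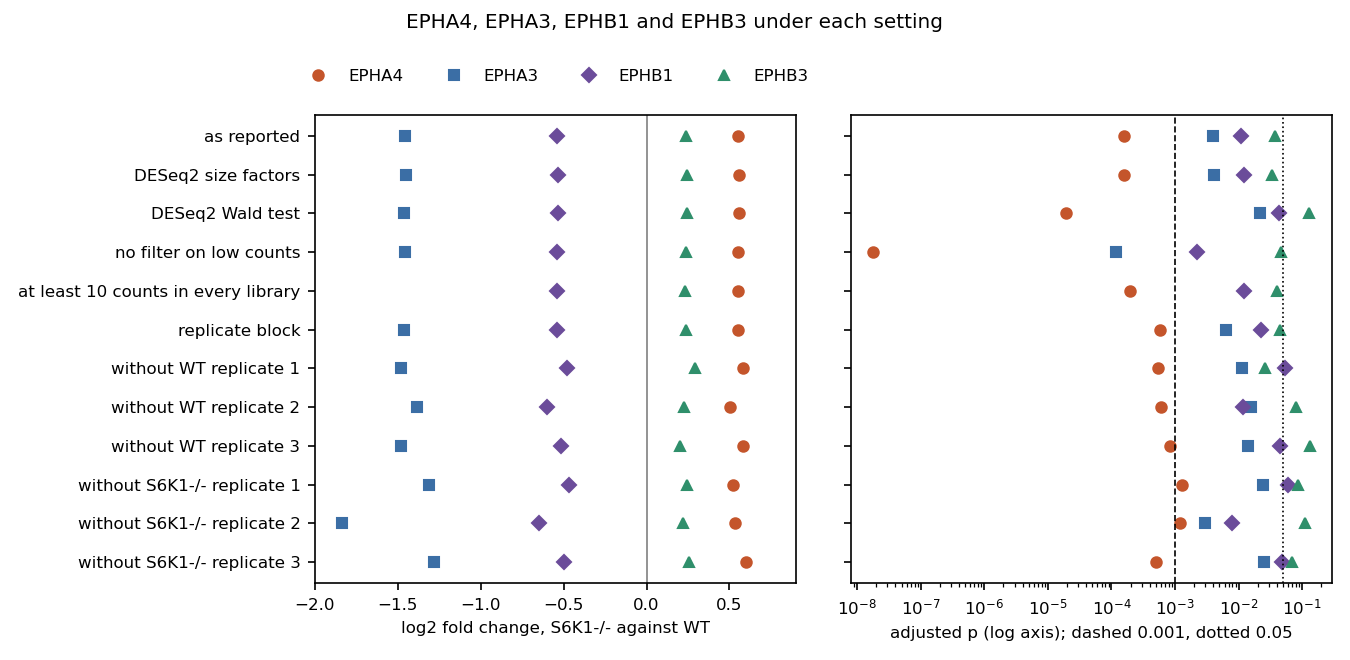
Log2 fold change of S6K1-/- against WT hESCs (left) and adjusted p on a log axis (right) for EPHA4, EPHA3, EPHB1 and EPHB3 under each setting, named on the vertical axis. No symbol changes side of 0 in the left panel. EPHA4 lies left of the dashed line at 0.001 except without S6K1-/- replicates 1 and 2, and EPHA3 has no symbol for at least 10 counts in every library.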

How the data were processed

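Total RNA of undifferentiated H7 hESCs was sequenced from stranded poly(A) libraries. Per the labels and the methods, the authors trimmed paired reads with Trim Galore 0.6.5, aligned them to GRCh38 with Bowtie2 2.4.5, which does not align across splice junctions, and deposited featureCounts counts per gene symbol without normalization. The annotation and the strand setting are not given in the sources used here. A second deposited table, of the authors' own DESeq2 comparison (mean level, fold change, standard error, statistic and p-values), was not used.

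Counts of the 6 libraries (21896698 to 24473013 per library) were filtered with filterByExpr, which kept 19521 genes, scaled by TMM and compared by genotype alone with edgeR's quasi-likelihood test (edgeR 4.0.16 in R 4.3.3). P-values were adjusted over all genes tested, and 0.001, the threshold of the methods, was used beside 0.05. Standard errors came from the fold change and the F statistic, and intervals are 95% intervals. The steps were tested on simulated data. Shares and levels carry no test. Alternatives were the size factors and the Wald test of DESeq2 1.42.0, a block on the replicate number, no filter, a minimum of 10 counts per library and each library left out in turn. Between replicates of a group the chi-square per degree of freedom was 2.23 to 4.51, so each was kept as its own library. This value cannot tell separate cultures from separate preparations of the same RNA.

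Coordinates, exon numbers and sequences are from GENCODE 44 on GRCh38, the build of the authors, and the EPHA2 primers from the supplement of the study. Receptors, partner lists and markers were chosen with earlier results of these data known. The rule for names takes all 10 receptors, RPS6KB1, genes that overlap a receptor, and up to 5 genes past 0.001 from each partner list. Genes named outside it were chosen after their values were seen.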

Additional observations from a re-analysis of the deposited data

How the results depend on the processing

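At an adjusted p under 0.05 in place of 0.001, the higher and lower genes were 1067 and 1622 over all genes, 2 and 2 among the receptors, 2 and 6 among the effectors and 4 and 5 among the other receptor tyrosine kinases. Without the filter on low counts, 37733 genes were tested in place of 19521. Of these, 591 were higher and 982 lower, and 1 receptor (EPHA3) and 1 effector were lower. With 1 library left out, 175 to 235 genes were higher and 313 to 445 lower, 0 to 1 receptors and 0 to 1 effectors were higher, and 1 ephrin (EFNB1) was higher in each of the 6 fits. The receptor call, EPHA4, was lost without S6K1-/- replicates 1 and 2. Left-out libraries moved the log2 ratio of the summed receptor level from 0.0081 to between -0.0097 and 0.036. They moved the log2 fold change of EPHA1 between -0.0063 and 0.053 (-0.0020 without WT replicate 2) and that of EPHA7 between -0.035 and 0.037 (-0.0044 without S6K1-/- replicate 1), and neither gene was past 0.05 in any of them. With the replicate number as a block 241 genes were higher and 423 lower, and EPHA4 kept an adjusted p of 5.80e-04 in edgeR's quasi-likelihood test. The numbers do not pair the libraries, since deviations of same-numbered libraries correlated at 0.0180, 0.00174 and 0.0316, and not every library correlated best with its own number. The other changes of setting left the receptor calls at 0.001 as they were. EPHA3 could not be fitted at 10 counts in every library, and EPHA5 has no value to compare. For EPHA3 and EPHA5 the depth limits what can be seen. The causes of these shifts were not tested.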
